A study of Sus scrofa with 74 samples.

Results

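The 32 genes described here encode enzymes and carriers of the citric acid cycle, of pyruvate entry into mitochondria and of the malate and aspartate shuttle. Members were the probe sets, other than array controls, that the probe annotation gives to a single one of these genes. A probe set is a group of short oligonucleotides that reads 1 transcript. Of the 32 genes, 27 had such a probe set, and 5 (PDHX, PDK1, PDK2, PDP1 and GLUD1) had none and carry no value. The 27 genes were read by 34 of the 23999 probe sets, and 32 of the 34 were bright enough to be kept, as were 47.7% of all probe sets. The 2 that were not kept, 1 each of ACO1 and PDK3, were also too dim within either block of animals, and each of the 27 genes kept at least 1 probe set. Transcript abundance was measured in M. longissimus dorsi, the long back muscle, of 74 F2 pigs from reciprocal crosses of Duroc and Pietrain, each hybridised to its own Affymetrix Porcine Genome Array. The animals were slaughtered at a mean end weight of 110 kg, and by the study's methods no animal carried the ryanodine receptor mutation of malignant hyperthermia. The animals form a single group without a treatment, and the labels give each only a DRIP number. They are separate pigs, but full-sib families underlie the cross, and the p-values below treat the animals as independent.

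The citric acid cycle oxidises acetyl groups to carbon dioxide in the mitochondrial matrix and hands their electrons to the respiratory chain. Pyruvate from glycolysis enters through the mitochondrial pyruvate carrier and is turned into acetyl-CoA by the pyruvate dehydrogenase complex, which its kinases switch off. The malate and aspartate shuttle moves reducing equivalents of cytosolic NADH into the matrix. In skeletal muscle these enzymes are most abundant in oxidative fibres, while the longissimus of the pig is mainly built of fast fibres.

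All levels below are log2 of the intensity after each array was brought to the same trimmed mean, and a level of 1 probe set is never set against that of another. Muscle markers bore out the tissue, as CKM, DES, TTN, MYH2, MYH7, TNNT3, TNNT1 and MYLPF each had a probe set at or above the 99.4 percentile of brightness, DES being the lowest. The DRIP numbers fall into 2 blocks, 24 animals from 1 to 33 and 50 from 60 to 114. The trimmed mean before scaling was 87.1 ± 14.9 in the low block and 130.4 ± 20.2 in the high block (SD). No source used here explains the numbering, so that the block and anything behind it cannot be told apart. Relations between genes were therefore taken with the block in the model or with block means removed. For some of them the values within each block are given as well. The animals DRIP 114 and DRIP 23 stood apart. DRIP 114 held the lowest value of 12 of the 32 member probe sets and had the lowest muscle marker score (-2.98, a mean z score) and the highest erythroid (4.15) and leukocyte (1.59) scores. DRIP 23 held the highest value of 6 member probe sets and the lowest of 4, and it had the highest muscle and fast fibre scores (2.13 and 2.41). Where a call was lost without these animals, the value without them is given. For the slow fibre score, where every call was lost, it is given for IDH2 only.

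Many members varied little between animals. In bulk tissue fewer cells of a type and less RNA per cell cannot be told apart, and all levels are of the whole muscle sample. The SD within blocks lay below the lower quartile of all kept probe sets (0.30) for 17 of the 32 member probe sets, between the quartiles for 10 and above the upper quartile (0.49) for 5. Among these 5 were the dimmer kept probe sets of ME1 (SD 0.53) and IDH3A (0.50), whose brighter ones gave 0.34 and 0.37. The quartiles are those of probe sets of any brightness, and probe sets of like brightness were not compared. MPC1, a subunit of the pyruvate carrier, had the narrowest spread, with a level from 13.00 over a median of 13.59 to 14.12 and an SD of 0.167. Among the cycle genes, CS (citrate synthase, which opens the cycle) ran from 12.87 over 14.03 to 15.01, with DRIP 114 lowest and DRIP 23 highest. SUCLG1, the subunit shared by both succinyl-CoA ligases, ran from 12.83 over 13.49 to 14.05 and FH (fumarase) from 11.84 over 12.59 to 13.23. DRIP 114 held the lowest value of all 4 of these genes. OGDH and DLST, which with DLD form the oxoglutarate dehydrogenase complex, ran from 11.09 over 11.79 to 12.35 and from 10.95 over 11.63 to 12.24. IDH2, the mitochondrial NADP-dependent isocitrate dehydrogenase, ran from 13.14 over 14.02 to 15.23. Of the NAD-dependent enzyme, IDH3A ran from 9.70 over 10.80 to 11.79, IDH3B from 8.89 over 9.82 to 10.29 and IDH3G from 10.94 over 11.55 to 12.56. DRIP 23 was highest for IDH2 and IDH3G, and IDH3B had the narrowest spread of the IDH3 subunits (SD 0.224).

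The remaining genes of pyruvate entry and of the shuttle follow. MPC2, the other subunit of the carrier, ran from 11.89 over 12.85 to 13.61. Of the pyruvate dehydrogenase complex, PDHA1 ran from 9.36 over 10.84 to 11.84, PDHB from 11.82 over 12.68 to 13.42 and DLAT, its acetyltransferase, from 9.43 over 10.21 to 10.68. The kinase PDK3 ran from 8.34 over 9.40 to 10.37. The malate dehydrogenases MDH1 (cytosolic) and MDH2 (mitochondrial) ran from 11.92 over 12.94 to 13.64 and from 12.28 over 13.30 to 13.78, and the mitochondrial aminotransferase GOT2 from 13.08 over 13.82 to 14.32. All 4 shuttle enzymes, GOT1 included, were lowest in DRIP 114.

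The widest spreads belonged to genes of different roles, and they are given here with the remaining members. GOT1, the cytosolic aspartate aminotransferase of the shuttle, ran from 9.56 over 11.49 to 12.79 (SD within blocks 0.546). SUCLA2, the ATP-forming ligase subunit, ran from 10.30 over 11.92 to 12.88 (SD 0.528), and IDH1, the cytosolic NADP-dependent isocitrate dehydrogenase, from 7.88 over 8.94 to 10.73 (SD 0.512). DLD, the dehydrogenase subunit shared by the pyruvate and oxoglutarate complexes, ran from 10.26 over 12.11 to 12.90 (SD 0.407). SUCLG2, the GTP-forming ligase subunit, ran from 9.65 over 10.70 to 11.61 (SD 0.45). DLD and SUCLA2 were lowest in DRIP 23, GOT1 was lowest in DRIP 114 and IDH1 highest in DRIP 20. PDK4, the kinase that shuts pyruvate dehydrogenase during fasting and fat use, ran from 12.79 over 14.50 to 15.09 (SD 0.425). PC, pyruvate carboxylase, which refills the cycle with oxaloacetate, ran from 9.33 over 10.60 to 12.33 (SD 0.488), and ME1, the cytosolic malic enzyme that yields NADPH, from 9.99 over 10.64 to 11.86 (SD 0.339).

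Genes with 2 kept probe sets allowed a check of the measurement. With block means removed, the correlation over the 74 animals between both probe sets was r = 0.87 for PDK4, 0.84 for IDH3A, 0.82 for CS and 0.76 for ME1. Both probe sets of ACO1, the cytosolic aconitase that also serves as an iron-regulatory protein, did not move together (r = -0.25). They ran from 9.72 over 11.45 to 11.95 and from 9.29 over 9.88 to 10.65. A statement on ACO1 below therefore holds for the named probe set only.

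**Figure D1:**
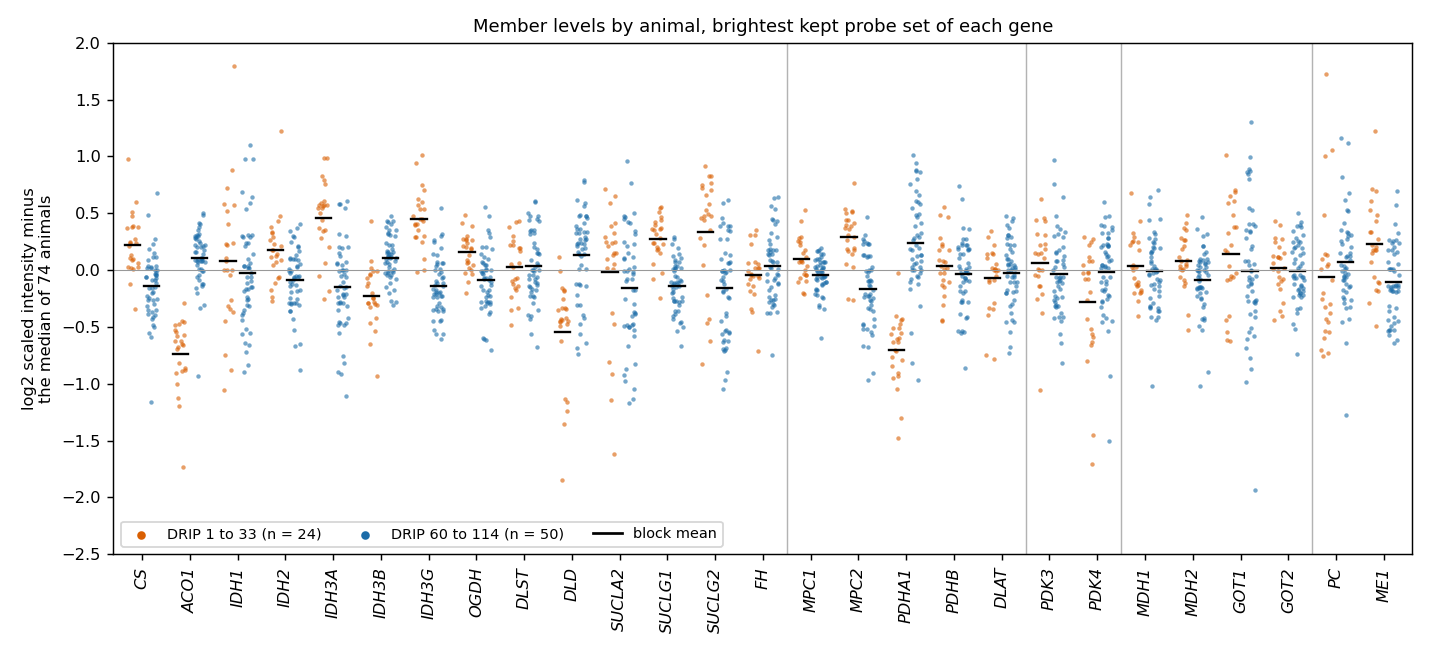
Level of each member gene in each of the 74 animals, as log2 scaled intensity minus the gene's own median, for the brightest kept probe set. Orange points are the 24 animals with DRIP 1 to 33, blue points the 50 with DRIP 60 to 114, black bars the block means and grey lines divide the roles, so that PDHA1, ACO1 and DLD lie lower and IDH3A, IDH3G and SUCLG1 higher in the low block while all genes overlap between blocks.

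Between the blocks some subunits of a complex differed and others did not. Block differences were common on the array, with 25.5% of all kept probe sets called higher in the low block and 36.1% lower. The values below are therefore not particular to these complexes. PDHA1, the catalytic subunit of pyruvate dehydrogenase, ran from 9.36 over 10.20 to 10.81 in the low block and from 9.87 over 11.03 to 11.84 in the high block. Only 3 animals of the low block lay below all of the high block, so that the groups overlapped. The mean of PDHA1 was lower in the low block by 0.94 (a log2 difference of -0.94 ± 0.095, SE, adjusted p = 4.2e-14), while its partners PDHB (0.07 ± 0.073, adjusted p = 0.39) and DLAT (-0.05 ± 0.072, adjusted p = 0.57) did not pass. DLD was lower in the low block by 0.67 (-0.67 ± 0.099, adjusted p = 1.3e-08). Among the subunits of NAD-dependent isocitrate dehydrogenase, IDH3G was higher in the low block by 0.59 ± 0.063 (adjusted p = 3.7e-13) and IDH3B was lower (-0.33 ± 0.058, adjusted p = 7.9e-07). The catalytic subunit IDH3A was higher by 0.61 ± 0.090 (adjusted p = 1.3e-08) in its brighter probe set but differed by -0.05 ± 0.121 (adjusted p = 0.73) in the other.

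Over the 32 member probe sets, limma called 13 higher in the low block and 6 lower (Benjamini-Hochberg adjusted p under 0.05 over all kept probe sets), where 25.5% of all kept probe sets were called higher and 36.1% lower. The median difference was 0.10 over the members and -0.06 over all. Besides the genes above, SUCLG2 (0.49), MPC2 (0.46), SUCLG1 (0.41), CS (0.36 and 0.14 in its 2 probe sets), ME1 (0.33 and 0.32), IDH2 (0.26), OGDH (0.25), MDH2 (0.17) and MPC1 (0.14) were higher in the low block. ACO1 (-0.84 and -0.29) and the brighter probe set of PDK4 (-0.26) were lower. The call of the second CS probe set was lost without DRIP 23 and DRIP 114 (adjusted p = 0.12). These are differences relative to the array's own level: in the values as deposited the median probe set was lower in the low block by 0.65 (-0.65), and there none of the members was called higher and 27 were called lower, by limma and also at an unadjusted p under 0.05. The share of all kept probe sets called in the values as deposited was not computed. The 3' to 5' ratio of the array's controls, a sign of RNA integrity, was taken as the mean of the log2 ratios of GAPDH and actin. It was 0.936 ± 0.103 (log2, SD) in the low block and 1.01 ± 0.102 in the high block. The 2 controls differed, with GAPDH at 0.15 and 0.20 and actin at 1.72 and 1.81 in the low and the high block. With the mean ratio as a covariate 12 members were called higher and 6 lower. Of the 30 probe sets of 25 neighbouring genes of the pathway 4 were higher and 11 lower in the low block, with SDHB (0.46 and 1.04), a subunit of succinate dehydrogenase, and the carrier SLC25A11 (0.53) higher, and LDHB (-0.55), a lactate dehydrogenase, and 1 of 2 SDHA probe sets (-0.24) lower. Of 21 probe sets of 16 genes known to respond to fasting or PPAR signalling 13 were lower, among them UCP3 (-1.01 and -0.71), CPT1B (-0.74), ANGPTL4 (-0.47 and -0.56) and FOXO1 (-0.31).

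Partner genes were compared in 36 listed pairs. The list held subunits of a complex, isoforms and consecutive enzymes. It also held pairs that are none of these, such as CS with OGDH, CS with FH and PC with CS. The pairs were chosen with earlier results of these data known. A positive correlation passed in 21 pairs and a negative one in 3, with 12 pairs not passing (two-sided permutation test within blocks, 100000 permutations, Benjamini-Hochberg over the 36 pairs), and 12 pairs reached 1e-05, the smallest p the permutations can give. The share that would pass among pairs of other kept probe sets was not computed. The count alone therefore does not show that partners go together more than other genes do. Of the 24 pairs that passed, 23 also passed with Spearman's rho and 23 had the same sign in both blocks. The exception in sign was MPC1 with MPC2, which together form the pyruvate carrier, at r = 0.25 (p = 0.032, adjusted p = 0.048), with r = -0.28 in the low block and 0.47 in the high block. For the pairs named below p is that of r, and the permutation p of rho was at most 0.035 in the 24 pairs that passed. Leaving out the 2 animals farthest from the median of the first gene, after block means were removed, lost the pass of 1 pair, CS with MDH2 (r = 0.32, then 0.18). Without DRIP 23 and DRIP 114 the same pair gave r = 0.11 and was likewise the 1 pair lost. In the low block alone 7 pairs no longer passed. They were CS with FH, CS with MDH2, IDH1 with IDH2, MPC1 with MPC2, MPC2 with PDHA1, OGDH with DLST and SUCLG1 with SUCLA2. In the high block alone none was lost.

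The enzymes of the malate and aspartate shuttle moved together. GOT1 and MDH1, which stand next to each other in the cytosol, correlated at r = 0.78 (rho = 0.72, both p = 1e-05), with r = 0.71 in the low block and 0.81 in the high block, and r = 0.72 without the 2 farthest animals. GOT1 with its mitochondrial counterpart GOT2 gave r = 0.77 (rho = 0.71, p = 1e-05), MDH1 with MDH2 r = 0.68 (rho = 0.60, p = 1e-05) and MDH2 with GOT2 r = 0.66 (rho = 0.65, p = 1e-05). All 4 shuttle pairs were positive in both blocks, from 0.48 to 0.82. FH, which makes malate, went with MDH2 at r = 0.62 (rho = 0.51, p = 1e-05).

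The subunits of single complexes were less uniform. In pyruvate dehydrogenase, PDHA1 correlated with PDHB at r = 0.49 (rho = 0.46, p = 5e-05) and with DLAT at 0.53 (rho = 0.48, p = 1e-05), PDHB with DLAT at 0.39 (rho = 0.34, p = 0.00065), and DLAT with DLD at 0.71 (rho = 0.63, p = 1e-05). In the oxoglutarate dehydrogenase complex, OGDH and DLST correlated at r = 0.68 (rho = 0.65, p = 1e-05), with r = 0.39 in the low block and 0.76 in the high block. OGDH and the shared subunit DLD gave r = -0.23 (rho = -0.16, p = 0.043, adjusted p = 0.062). None of the 3 pairs among IDH3A, IDH3B and IDH3G passed, with r = -0.18 for IDH3A with IDH3B, 0.17 for IDH3A with IDH3G and 0.15 for IDH3B with IDH3G (adjusted p = 0.17, 0.17 and 0.25). The interchangeable ligase subunits SUCLA2 and SUCLG2 correlated at r = 0.78 (rho = 0.75, p = 1e-05). Their shared partner SUCLG1 went with SUCLA2 at r = 0.40 (rho = 0.36, p = 0.00041), with r = 0.20 in the low block and 0.51 in the high block. SUCLG1 gave r = 0.19 with SUCLG2 (rho = 0.17, p = 0.11).

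CS went with OGDH at r = 0.74 (rho = 0.76, p = 1e-05; r = 0.70 and 0.76 in the blocks). The negative pairs were CS with the brighter ACO1 probe set (r = -0.71, rho = -0.69, p = 1e-05), PC with PDHA1 (r = -0.49, rho = -0.43, p = 2e-05) and cytosolic IDH1 with mitochondrial IDH2 (r = -0.43, rho = -0.40, p = 0.00029). In the values as deposited, where a brighter array lifts all its genes, these 3 gave r = -0.001, -0.24 and -0.16, and only PC with PDHA1 still passed. IDH1 and ME1, which both supply cytosolic NADPH, correlated at r = 0.53 (rho = 0.46, p = 2e-05).

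Across all 351 pairs of the 27 genes, as a description without a test, 226 correlations were positive and 125 negative, with a mean of 0.17 against 0.0035 over all pairs of kept probe sets. The highest was DLD with SUCLA2 (r = 0.87), followed by DLST with GOT1 (0.81). The matrix of correlations holds 2 groups, picked out after their values were seen. Within SUCLA2, SUCLG2, DLD, DLAT and MPC2 r ran from 0.53 to 0.87, within CS, OGDH, IDH3G, IDH2, DLST, GOT1 and GOT2 from 0.59 to 0.81, and between both groups from -0.47 to 0.35.

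**Figure D2:**
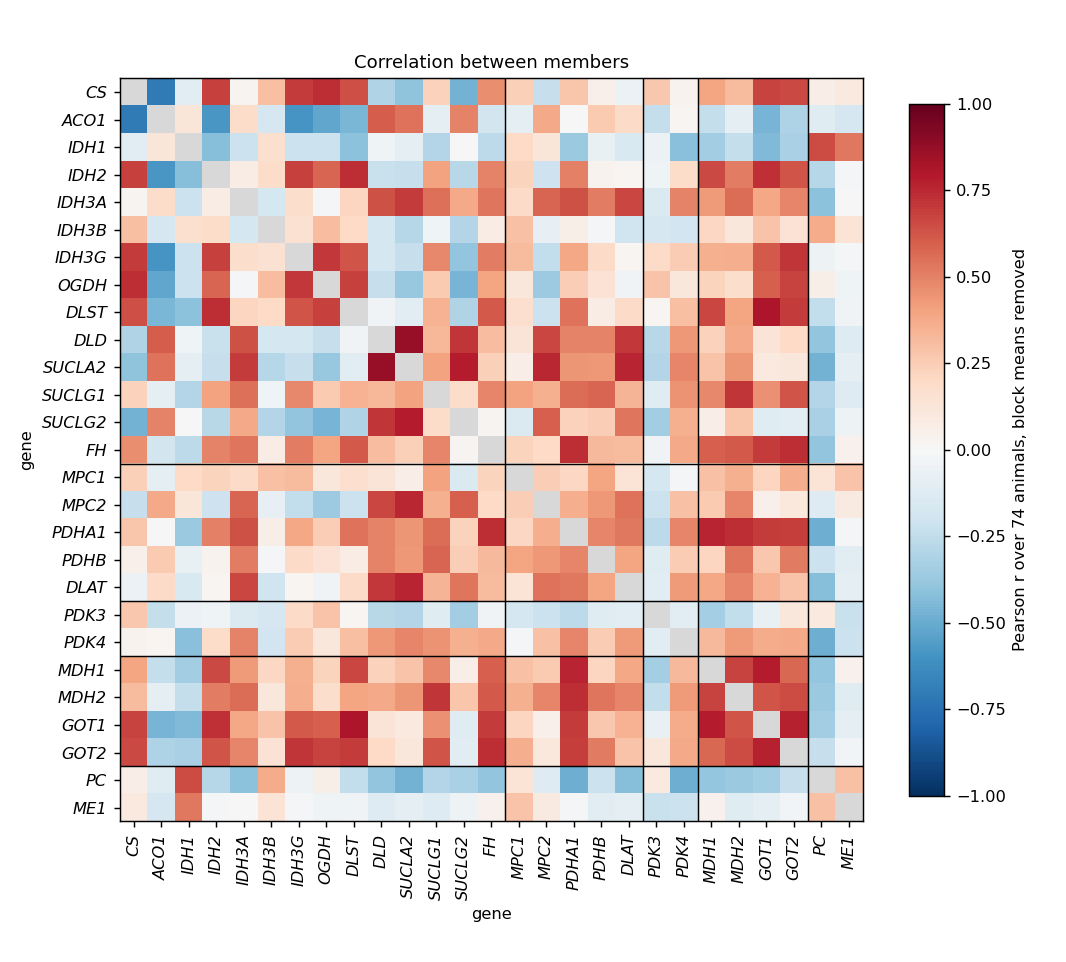
Pearson r between the 27 member genes over 74 animals with block means removed, each gene by its brightest kept probe set, in the order of their roles with black lines between roles. Red marks positive and blue negative correlation, from 0.87 for DLD with SUCLA2 to -0.71 for CS with ACO1. IDH1, PDK3, PC, ME1 and ACO1 are each negative with most other genes.

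Members were then set against the respiratory chain, whose level was taken as the mean z score of 54 genes of oxidative phosphorylation. This score ran from -0.82 over 0.38 to 1.36 in the low block and from -2.44 over -0.15 to 0.92 in the high block, so that the blocks overlapped. Of the 32 member probe sets 23 had a positive slope and 3 a negative one (limma with the block as a term, adjusted p under 0.05), where 10.3% of the other kept probe sets were called positive and 13.9% negative. The median partial r was 0.47 over the members and -0.031 over all. All 4 shuttle enzymes were among the closest. MDH2 was higher by 0.40 ± 0.034 log2 units per unit of the score (SE, partial r = 0.83, adjusted p = 1.7e-16), GOT1 by 0.80 ± 0.068 (r = 0.81), GOT2 by 0.38 ± 0.035 (r = 0.80) and MDH1 by 0.43 ± 0.040 (r = 0.80). In the low and the high block alone MDH2 gave r = 0.87 and 0.82.

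All 5 genes of pyruvate entry passed as well, led by PDHA1 (0.57 ± 0.049, r = 0.82, adjusted p = 6.6e-16) and followed by PDHB (r = 0.50), DLAT (0.47), MPC1 (0.45) and MPC2 (0.35). Among the cycle genes FH (r = 0.75), SUCLG1 (0.74), IDH2 (0.68), IDH3A (0.64 and 0.59), CS (0.63 and 0.54), DLST (0.62), IDH3G (0.60), OGDH (0.38), SUCLA2 (0.35) and DLD (0.33) passed with a positive slope. Both PDK4 probe sets passed too (r = 0.47 and 0.44). PC (r = -0.41, adjusted p = 0.0024), IDH1 (r = -0.35, adjusted p = 0.012) and the brighter ACO1 probe set (r = -0.30, adjusted p = 0.049) passed with a negative slope, of which ACO1 and IDH1 had a positive slope in the values as deposited (0.41 and 0.17). Without DRIP 23 and DRIP 114, MPC1 (adjusted p = 0.14) and ACO1 (adjusted p = 0.43) no longer passed, and MDH2 stood at r = 0.79. SUCLG2, IDH3B, ME1, PDK3 and the second ACO1 probe set did not pass in the 74 animals.

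The neighbouring genes gave 13 positive and 3 negative slopes in 30 probe sets on the same score. Succinate dehydrogenase, the cycle enzyme that is also complex II, passed in SDHA (r = 0.75 and 0.74), SDHC (0.73), SDHD (0.74) and 1 probe set of SDHB (0.79), whose other probe set was negative (-0.31). The carriers of the shuttle, SLC25A12 (0.75) and SLC25A11 (0.72), passed too. Of the 21 probe sets of the fasting list 7 were positive and 1 negative, among them PPARGC1A (0.54), CPT1B (0.43) and UCP3 (0.41 and 0.37).

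Members were also set against the transcript level of CS, and they fell to both sides. Citrate synthase is a common marker of mitochondrial content, but only its transcript was read here and mitochondrial content was not measured. Of the 30 member probe sets other than those of CS, 12 (40.0%) had a positive and 4 (13.3%) a negative slope. Over all other kept probe sets 22.2% were called positive and 24.4% negative, so that negative slopes were rarer among the members. OGDH was higher by 0.62 ± 0.072 per log2 unit of CS (partial r = 0.74, adjusted p = 1.5e-10), IDH3G by 0.62 ± 0.078 (r = 0.70), IDH2 by 0.68 ± 0.086 (r = 0.68), GOT1 by 1.29 ± 0.165 (r = 0.68), GOT2 by 0.60 ± 0.082 (r = 0.66) and DLST by 0.66 ± 0.094 (r = 0.65). FH (r = 0.46), MDH1 (0.40), MDH2 (0.32), IDH3B (0.30), PDHA1 (0.28) and PDK3 (0.27) passed with smaller correlations. Without DRIP 23 and DRIP 114 the calls of MDH1, MDH2, IDH3B and PDHA1 were lost (adjusted p = 0.18, 0.48, 0.08 and 0.44), and PDHA1 gave r = -0.059 in the low block against 0.39 in the high block.

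The members with a negative slope on CS were the brighter ACO1 probe set (-0.66 ± 0.081, partial r = -0.71, adjusted p = 8.1e-10), SUCLG2 (-0.75 ± 0.162, r = -0.47, adjusted p = 0.00011), SUCLA2 (-0.74 ± 0.197, r = -0.40, adjusted p = 0.0014) and DLD (-0.43 ± 0.159, r = -0.30, adjusted p = 0.022). Each was negative within both blocks, ACO1 with r = -0.80 and -0.68. In the values as deposited SUCLG2, SUCLA2 and DLD had positive slopes that did not pass (0.26, 0.58 and 0.67) and that of ACO1 was -0.0022. The slope on CS was called different between the blocks for 0 of the 30 member probe sets by limma, 4 had an unadjusted p under 0.05, and over all other kept probe sets 0.0961% were called with a positive difference and 0.349% with a negative one.

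The genes outside the list with the largest partial r with CS were subunits of the respiratory chain and ATP synthase: NDUFB11 (r = 0.81), NDUFS3 (0.80), ATP5G1 (0.80), NDUFA13 (0.79) and NDUFA3 (0.78). The most negative were HMGN1 (-0.80), a nucleosome-binding protein, HNRNPH3 (-0.75), an RNA-binding protein, and ANXA1 (-0.75), an annexin. Of 30 probe sets of 25 neighbouring genes of the pathway, 14 had a positive and 5 a negative slope on CS. Succinate dehydrogenase passed in SDHA (r = 0.77 and 0.66) and SDHC (0.37), and its SDHB gave r = 0.58 in 1 probe set and -0.43 in the other. The oxoglutarate and malate carrier SLC25A11 (0.62), the aspartate and glutamate carrier SLC25A12 (0.44) and lactate dehydrogenase LDHA (0.59) passed as well. Of the 21 probe sets of the fasting list 5 were positive, against 22.2% of all kept probe sets, and 1 was negative. The negative one was TFAM, the mitochondrial transcription factor (r = -0.61, adjusted p = 1.8e-07), which was named after its value was seen, and among the positive ones were FOXO1 (0.36) and PPARGC1A (0.28).

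**Figure D3:**
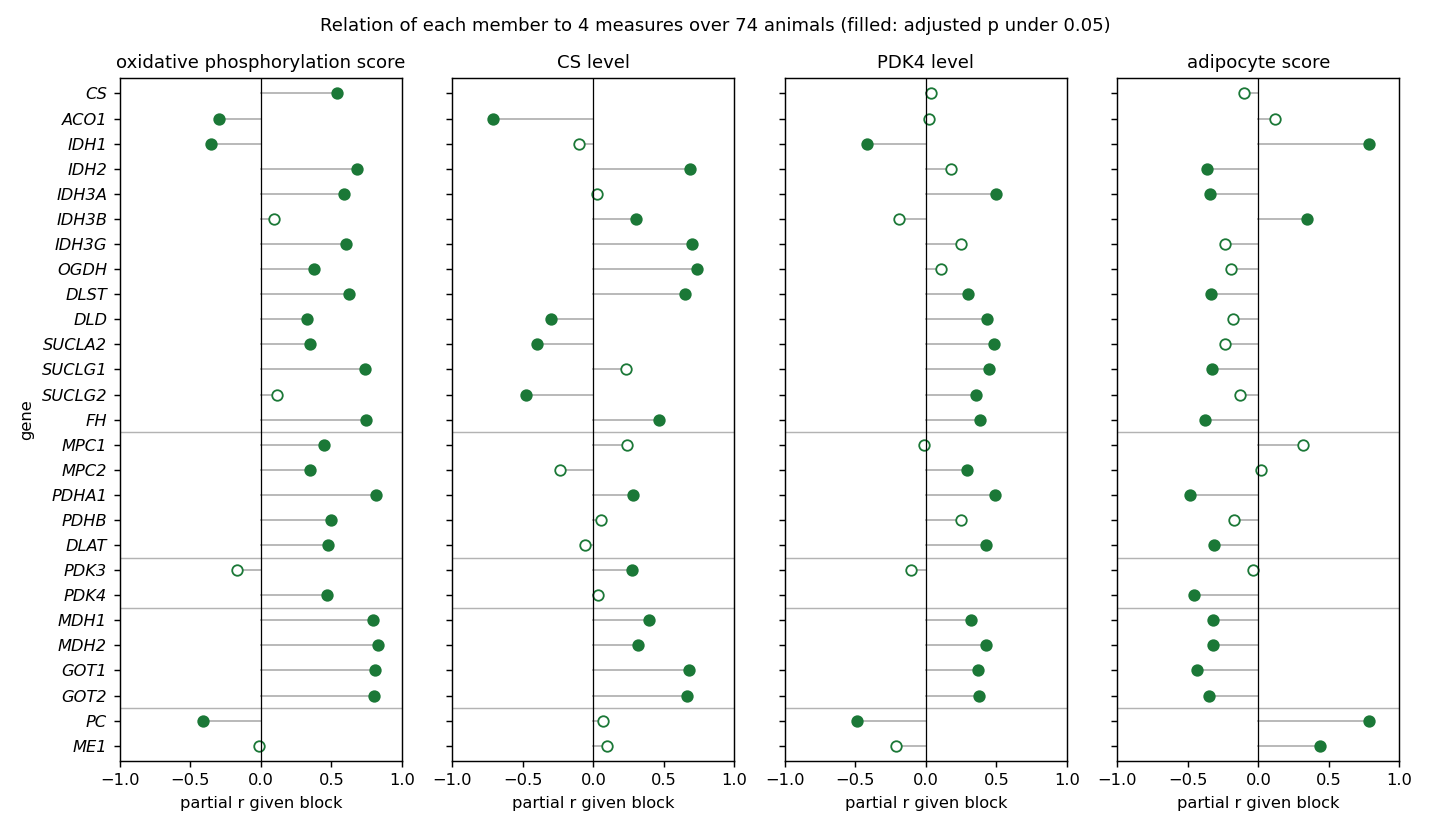
Partial r, given the block, of each member gene with the oxidative phosphorylation score, the level of CS, the level of PDK4 and the adipocyte score over 74 animals, for the brightest kept probe set of each gene. Filled points passed at an adjusted p under 0.05 and open points did not; a gene is not set against itself, and MDH1, MDH2, GOT1 and GOT2 lie to the right in the first 3 panels and to the left in the fourth.

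PDK4 is the kinase through which fasting and fatty acids restrain pyruvate oxidation. In the low block its level ran from 12.79 over 14.42 to 14.79 and in the high block from 12.99 over 14.53 to 15.09, with DRIP 20 and DRIP 102 lowest. Of the 30 member probe sets other than its own, 15 had a positive and 3 a negative slope on PDK4, where 10.9% of the other kept probe sets were called positive and 14.1% negative. The median partial r was 0.27 over the members and -0.034 over all. IDH3A led (0.64 ± 0.114 in the dimmer and 0.42 ± 0.088 in the brighter probe set, partial r = 0.54 and 0.49, adjusted p = 6.6e-05 and 0.00038). PDHA1, the subunit that the kinase phosphorylates, was higher by 0.45 ± 0.094 per log2 unit of PDK4 (r = 0.49, adjusted p = 0.00041), as were SUCLA2 (0.60 ± 0.126, r = 0.49), SUCLG1 (r = 0.45), DLD (0.44), MDH2 (0.43), DLAT (0.42), FH (0.38), GOT2 (0.38), GOT1 (0.37), SUCLG2 (0.36), MDH1 (0.32), DLST (0.30) and MPC2 (0.29).

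PC (-0.56 ± 0.117, r = -0.49, adjusted p = 0.00039), the dimmer kept ACO1 probe set (r = -0.44, adjusted p = 0.0024) and IDH1 (-0.51 ± 0.127, r = -0.42, adjusted p = 0.0027) were lower where PDK4 was higher. CS gave r = 0.034 and 0.099 in its 2 probe sets and did not pass. The related kinase PDK3 gave r = -0.10. PDHA1 gave r = 0.78 in the low block and 0.39 in the high block, and IDH3A 0.75 and 0.37 in its brighter probe set. Within the 24 animals of the low block 9 and 3 members passed, and within the 50 of the high block none passed, although 12 positive and 1 negative slopes had an unadjusted p under 0.05 there by limma. The shares of all kept probe sets called within each block were not computed, so these counts cannot be set against other genes. The difference of the PDK4 slope between blocks, tested after these counts were seen, was called in 0 of the 30 (1 with an unadjusted p under 0.05), with 0.0262% of the other kept probe sets called with a positive and 0.00873% with a negative difference. Without DRIP 20 and DRIP 102 together 9 positive calls were left, and without either alone 14 and 12. Without DRIP 23 and DRIP 114 the call of MPC2 was lost (adjusted p = 0.063).

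The genes outside the list closest to PDK4 were DNAJB9, a chaperone of the endoplasmic reticulum (3 probe sets, r = 0.63, 0.61 and 0.60), COQ9 of coenzyme Q synthesis (0.59) and the transcription factor TEAD1 (0.57). The most negative were RRBP1 (-0.69), a ribosome-binding protein of the endoplasmic reticulum, FAT1 (-0.65), an atypical cadherin, and the mitochondrial citrate carrier SLC25A1 (-0.64). Of the 21 probe sets of the fasting list, 7 had a positive and 1 a negative slope on PDK4, among them the coactivator PPARGC1A (r = 0.52), the uncoupling protein UCP3 (0.45 and 0.40) and the carnitine transferase CPT1B (0.37). Of 23 probe sets of 19 genes of fatty acid oxidation, 14 had a positive slope on PDK4, where 10.9% of the other kept probe sets were called positive. This was not particular to PDK4, as 20 of the 23 were positive on the oxidative phosphorylation score, with 10.3% of the other kept probe sets. On CS 8 were positive and 4 negative, where 22.2% and 24.4% of the other kept probe sets were called. SDHB (0.45, 1 of 2 probe sets), SDHC (0.39), SDHD (0.53) and SDHA (0.38, 1 of 2) passed with a positive slope as well, as did SLC25A11 (0.32) and SLC25A12 (0.46).

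The muscle also holds fat cells between its fibres. A score of 11 adipocyte genes was used as a measure of them, although some of them (GPD1, FASN and SCD, for example) are also active in muscle fibres. The adipocyte hormone gene ADIPOQ ran from 6.89 over 9.32 to 12.35 and the fatty acid binding protein FABP4 from 9.65 over 12.34 to 14.26. The summed intensity of the list ran from 13677 to 99689 in the low block and from 14319 to 69740 in the high block. Of the 32 member probe sets 6 had a positive and 14 a negative slope on the score, with 8.45% of the other kept probe sets called positive and 5.87% negative.

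Of the 6 positive slopes 3 belonged to genes of anaplerosis and NADPH supply (PC and both probe sets of ME1) and 3 to isocitrate dehydrogenases and ACO1. PC was higher by 0.61 ± 0.057 per unit of the score (partial r = 0.79, adjusted p = 1.7e-14, with r = 0.86 and 0.74 in the blocks) and IDH1 by 0.64 ± 0.060 (r = 0.78, adjusted p = 3.1e-14, with 0.80 and 0.78). The dimmer kept ACO1 probe set (r = 0.51), ME1 (0.44 and 0.34) and IDH3B (0.34) followed. PDHA1 (r = -0.48), PDK4 (-0.46 and -0.43), IDH3A (-0.45 and -0.34), GOT1 (-0.43), FH (-0.38), IDH2 (-0.37), GOT2 (-0.35), DLST (-0.34), SUCLG1 (-0.33), MDH2 (-0.32), MDH1 (-0.32) and DLAT (-0.32) were lower where the score was higher. DRIP 20 had the highest adipocyte score (1.48), and without it 4 positive and 7 negative calls were left. In the values as deposited 1 negative call was left, and DLAT, the brighter IDH3A probe set, MDH2 and SUCLG1 had positive slopes.

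Relations to the contractile type and to glycolysis were weaker or less stable. On a score of 9 slow fibre genes, IDH2 (partial r = 0.53, adjusted p = 0.00029), MDH1 (0.46), MDH2 (0.44), the brighter CS probe set (0.40) and GOT1 (0.35) had a positive slope, which makes 5 of 32, and 0 had a negative one (2 with an unadjusted p under 0.05 by limma), with 3.22% and 1.7% of the other kept probe sets called. These calls rested largely on DRIP 114, whose slow fibre score was -3.62, with the next lowest animal at -1.52. Without it IDH2 alone was called (adjusted p = 0.022), and without DRIP 23 as well none was (2 positive and 2 negative slopes with an unadjusted p under 0.05), IDH2 then at r = 0.40. The summed intensity of 4 erythroid probe sets had a median of 1105 in the low block and 776 in the high block with a highest value of 18633, and their part in the result was not tested.

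On a score of 14 glycolysis genes 8 member probe sets (25.0%) had a positive and 4 (12.5%) a negative slope. Of the other kept probe sets 20.1% were called positive and 22.2% negative. The positive share of the members was thus near that of all and the negative share lower. IDH3G (r = 0.63), CS (0.60 and 0.51), OGDH (0.49), GOT2 (0.44), PDK3 (0.43), IDH2 (0.37) and MPC1 (0.35) were higher with the score. Without DRIP 23 and DRIP 114 the calls of IDH2 and MPC1 were lost (adjusted p = 0.10 and 0.15). SUCLG2 (-0.48), the brighter ACO1 probe set (-0.45), SUCLA2 (-0.38) and DLD (-0.37) were lower, and each of these also had a negative slope on CS. Their slopes were positive in the values as deposited, where limma called 27 members positive and 0 negative (28 and 0 at an unadjusted p under 0.05). After quantile normalization 2 positive and 1 negative calls were left, so that no direction is given for this group without its scaling. The shares of all kept probe sets called under these scalings were not computed, so these counts are not read as a trait of the members.

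**Figure D4:**
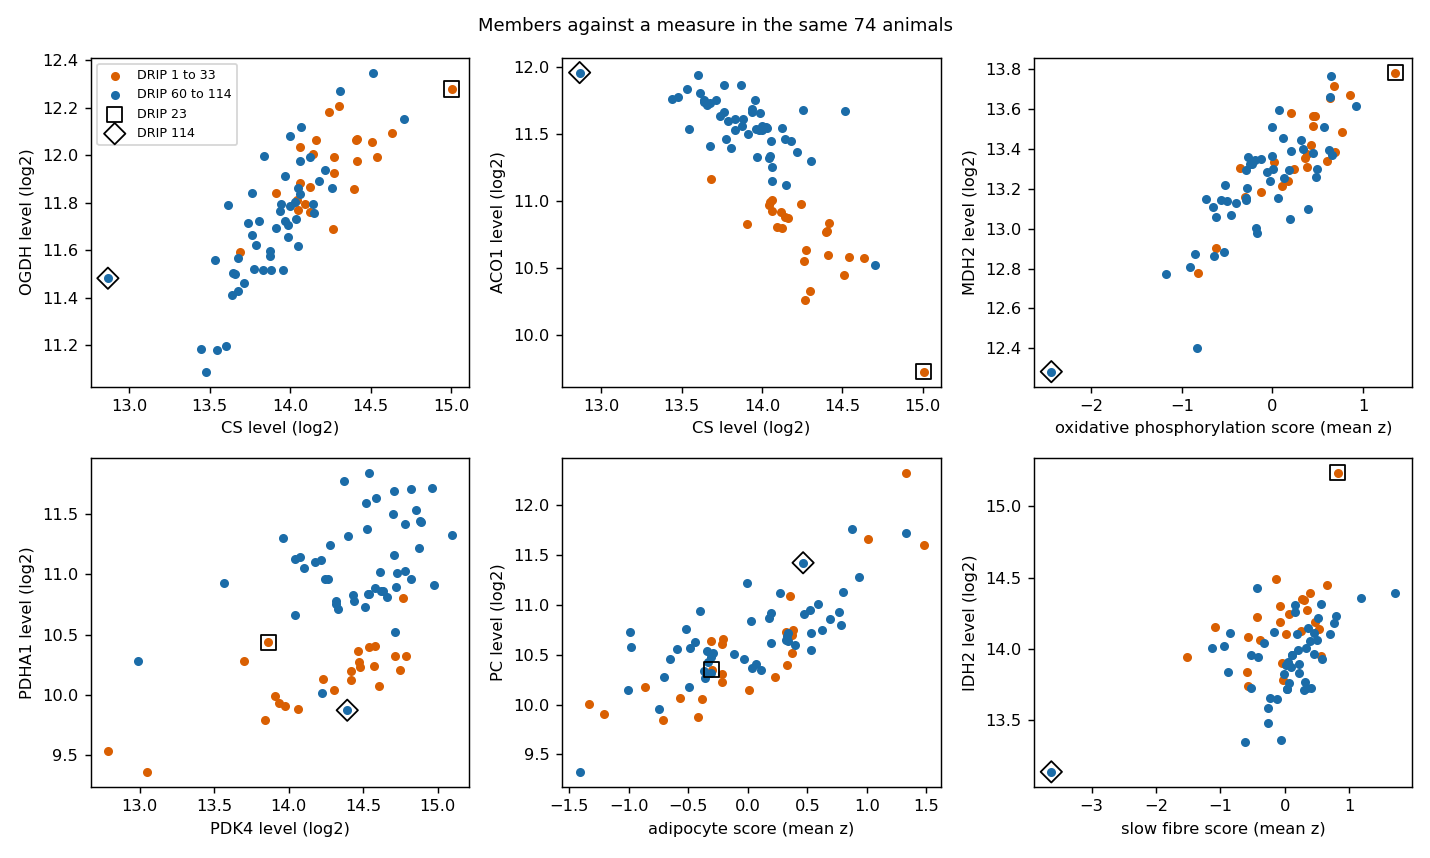
Level of 6 members (log2 scaled intensity) against another measure in the same 74 animals: OGDH and ACO1 against CS, MDH2 against the oxidative phosphorylation score, PDHA1 against PDK4, PC against the adipocyte score and IDH2 against the slow fibre score. Orange points are DRIP 1 to 33, blue points DRIP 60 to 114, the square marks DRIP 23 and the diamond DRIP 114, which lies at -3.62 in the last panel, apart from all other animals.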

How the data were processed

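For 74 muscle samples the authors deposited intensity on a linear scale for 24123 probe sets (124 controls, 34 zeros). Per the paper's methods and the submitters' notes, arrays were analysed with GCOS 1.1.1, with global scaling, present calls by MAS5 and PLIER. No source used here says which of them gave the deposited values. Here every array was brought to a common trimmed mean of 500, leaving out 2% at each end, values under 1 were set to 1, and log2 was used. The 11453 probe sets of highest median, controls excluded, were kept in place of present calls. The platform annotation gave 1 symbol to 10069 probe sets, several to 198 and none to 13732.

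Every kept probe set was fitted with limma 3.58.1 (R 4.3.3, lmFit, eBayes with trend) on the block of DRIP numbers, on the brightest probe set of CS or PDK4, or on a score (mean z score of a list) with the block as a term, and p was adjusted by Benjamini-Hochberg over all kept probe sets. A gene's own probe sets, or those of a list, were left out of its counts. Partial r is given the block. Partner pairs used the brightest kept probe set of each gene, and 7 of the 43 pairs lacked a gene. Scripts were tested on simulated data, and Python 3.11.15 was used for the rest. The members, lists and pairs were chosen with earlier results of these data known. All members with a level were named, in each fit every member called, and outside them the 5 probe sets with the largest positive and the 3 with the largest negative partial r with CS and PDK4. Family, sex and slaughter date were not used here. The number of arrays limits the precision. As alternatives, 16 was added before the log2, or the model used quantile normalization, values as deposited, all 23999 probe sets, no block term, either block alone, the 2 animals farthest from the median left out, the control 3' to 5' ratio as a covariate and only the brightest probe set. Leaving out single animals (DRIP 20, 23, 26, 102, 111, 114) and the PDK4 interaction were added after seeing the data.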

Additional observations from a re-analysis of the deposited data

How the results depend on the processing

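Adding 16 before the log2 lost no call. Of 3496 values of single members and pairs under the alternatives, 3082 kept their side of the threshold, 267 fell below it and 116 passed newly. The remaining 31 had passed and changed direction. Direction was followed only for values that had passed at first, so sign changes of the others are not counted among the 31. In the counts of members called that follow, the first is positive and the second negative. The shares of all kept probe sets called were not computed under the alternatives, so these counts have no background beside them. Without scaling (values as deposited) the block difference gave 0 and 27 in place of 13 and 6, and the slopes of CS (-0.22 and -0.44), IDH2 (-0.33), OGDH (-0.34), SUCLG1 (-0.18), SUCLG2 (-0.096), MPC1 (-0.45), MPC2 (-0.13), MDH2 (-0.41) and ME1 (-0.26 and -0.26) turned. The negative counts fell to 0 on CS (DLD 0.67, SUCLA2 0.58, SUCLG2 0.26), on PDK4, on oxidative phosphorylation (ACO1 0.41, IDH1 0.17) and on glycolysis (27 positive; ACO1 0.78, DLD 0.84, SUCLA2 1.05, SUCLG2 0.79), and to 1 on the adipocyte score (DLAT 0.080, IDH3A 0.035, MDH2 0.022, SUCLG1 0.032). The slow fibre score gave 24 positive and the partner pairs 1 negative. In these values all probe sets of a brighter array are higher together. Quantile normalization left 2 and 1 on glycolysis (IDH2 -0.10, SUCLA2 0.016) and 2 positive on slow fibre.

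Without a block term the counts were 9 positive on PDK4, 8 negative on the adipocyte score, 2 negative on glycolysis and 3 positive on slow fibre, and on CS the slopes of IDH3B (-0.071) and PDHA1 (-0.41) turned. In the low block alone (24 animals) they were 2 and 2 on CS (PDHA1 -0.068), 9 positive on PDK4, 15 and 0 on oxidative phosphorylation (DLD -0.026), 2 and 0 on glycolysis, 0 on slow fibre and 2 and 3 on the adipocyte score, and MPC1 with MPC2 gave r = -0.28. In the high block alone they were 0 and 0 on PDK4, 1 negative on oxidative phosphorylation and 3 and 4 on the adipocyte score. Both use fewer animals. Without the 2 farthest animals they were 9 positive on PDK4, 9 negative on the adipocyte score, 8 negative on glycolysis and 0 positive on slow fibre. Without DRIP 20 the adipocyte score had 7 negative, and the slow fibre score had 1 positive without DRIP 114 and 0 without DRIP 23 as well. Where limma called 0 in the values as deposited for the block difference, CS, PDK4, oxidative phosphorylation and glycolysis, slopes of that direction with an unadjusted p under 0.05 also numbered 0. In the low block such slopes numbered 3 negative on oxidative phosphorylation, 3 negative on glycolysis and 1 positive on slow fibre. For slow fibre they numbered 3 without the 2 farthest animals and 2 without DRIP 23 and DRIP 114, and for PDK4 in the high block 12 and 1. The cause of these changes was not tested. No paired analysis was possible because the animals form 1 group.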
